A study of Homo sapiens with 96 samples.

Results

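The 10 heat shock protein genes described here were followed across every condition of a study of mRNA levels in A375 cells, a human melanoma cell line. The 10 genes were taken by symbol from the table of raw counts, which lists 44659 genes. They are HSPA1A, HSPA1B, HSPA8 and HSPH1 of the cytosolic HSP70 and HSP110 families, the co-chaperone DNAJB1, the HSP90 genes HSP90AA1 and HSP90AB1, the small heat shock protein HSPB1, and the HSP70 of the endoplasmic reticulum (ER), HSPA5, and the mitochondrial chaperonin HSPD1. The rule names genes and uses no measured value, but the genes were chosen with earlier results of these data known. The study compared cells pretreated for 18 h with 500 nM vemurafenib, a BRAF inhibitor, plus 500 nM cobimetinib, a MEK inhibitor (together MAPKi), with cells pretreated with DMSO, the solvent. Each pretreatment was followed by 1 of 4 arms, which were DMSO again (vehicle), 100 µg/ml cycloheximide (CHX), 25 µM triptolide (T), or cycloheximide followed 5 min later by triptolide (TCHX), and cells were harvested at 0, 1, 3 and 5 h. Cycloheximide blocks the elongation step of translation and triptolide blocks the initiation of transcription, so that the T and TCHX arms follow mRNAs that are no longer made. With 3 replicates in each of the 32 groups there were 96 libraries, all from 1 cell line and all from cytoplasmic RNA, read at the 3′ ends of mRNAs. Plates for the 4 harvest times were set up side by side and each was used for 1 time, so plate set and time cannot be told apart. The labels number the replicates without saying that they came from separate cultures, and p-values therefore measure the spread between these libraries, which may be technical.

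Libraries held 2381351 to 12520154 counts, with a median of 7143396, and no 2 replicates of a group agreed within sampling noise. Of the melanocyte lineage markers, MITF, SOX10, S100B and DCT were counted in all 96 libraries at 28.1 CPM (counts scaled to the TMM-adjusted library total) or more, whereas MLANA, TYR and TYRP1 never exceeded 5.96 CPM and PMEL ranged from 0.194 to 24.8 CPM. Markers of other cell types were at 0 in every library for KRT5, CD3E and COL3A1, and at most 4.70 CPM for EPCAM, KRT14, PTPRC, PECAM1 and VWF. Of the 8 melanocyte markers 7 were tested and 6 were higher after MAPKi, so the balance of these markers moved with the pretreatment, and their part in the results below was not tested. In bulk RNA, fewer cells of a type and less of an mRNA per cell cannot be told apart.

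Heat shock proteins are chaperones that bind unfolded or partly folded proteins and, with co-chaperones and ATP, let them fold, hold them in solution or hand them on for degradation. HSP70 proteins work in cycles with J-domain proteins such as DNAJB1, which deliver substrates, and with exchange factors such as HSPH1, while HSP90 proteins act on nearly folded clients that include many kinases. Heat and other stress that unfolds cytosolic proteins induces the family through heat shock factor 1, whose binding element is built from inverted GAA repeats, whereas HSPA5 is induced by unfolded proteins in the ER through the ER stress response element.

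Promoter sequence was available for all 10 genes, as 16 windows from RefSeq on GRCh38.p14. Each window runs from 250 bases before to 50 bases after an annotated start. Both strands were searched for 2 spellings of the heat shock element, one with 3 repeats (GAA, TTC and GAA, or TTC, GAA and TTC, with 2 free bases between neighbours) and one with 2 (GAA and TTC, or TTC and GAA, spaced alike, which also lie inside the longer words), and for the ER stress response element, which reads CCAAT, 9 free bases and CCACG. The words with 3 repeats were in 172 of 35116 windows of all genes (0.490%) and, counted by gene, in 0.608% of all genes. They were in windows of 4 of the 10 genes, HSPA8, HSP90AA1, HSP90AB1 and HSPD1. For HSP90AB1 they lay only in a window 842 bases from the canonical start. The words with 2 repeats were in 13.5% of all windows, in 16.2% of all genes and in windows of 8 of the 10 genes. The ER word was in 27 windows of all genes (0.0769%), among them that of HSPA5, and the window of HSPH1, placed 484 bases from the canonical start, held none of these words. A match is a description of the letters and not evidence of a bound factor. The 250 bases before the canonical start are shown for 6 of the 10 genes, 5′ to 3′ on the gene's strand. The canonical window of HSP90AB1 held none of these words, and a relation between words and responses was not tested. Capitals mark the words with 3 repeats in HSPA8, HSP90AA1 and HSPD1, the words with 2 repeats in DNAJB1 and HSPB1, and the ER word in HSPA5.
DNAJB1, chr19:14518398-14518647, minus strand: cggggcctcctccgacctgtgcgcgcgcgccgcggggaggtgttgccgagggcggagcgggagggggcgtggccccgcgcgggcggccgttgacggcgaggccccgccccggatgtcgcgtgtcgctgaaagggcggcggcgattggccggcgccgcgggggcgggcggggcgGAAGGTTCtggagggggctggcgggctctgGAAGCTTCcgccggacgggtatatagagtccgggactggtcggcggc
HSPA8, chr11:123062137-123062386, minus strand: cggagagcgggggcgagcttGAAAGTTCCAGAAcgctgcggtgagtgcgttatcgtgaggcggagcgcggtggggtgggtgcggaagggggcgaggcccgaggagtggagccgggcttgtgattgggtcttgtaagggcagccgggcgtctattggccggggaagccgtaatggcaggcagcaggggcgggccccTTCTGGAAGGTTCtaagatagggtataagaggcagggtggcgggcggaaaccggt
HSP90AA1, chr14:102087045-102087294, minus strand: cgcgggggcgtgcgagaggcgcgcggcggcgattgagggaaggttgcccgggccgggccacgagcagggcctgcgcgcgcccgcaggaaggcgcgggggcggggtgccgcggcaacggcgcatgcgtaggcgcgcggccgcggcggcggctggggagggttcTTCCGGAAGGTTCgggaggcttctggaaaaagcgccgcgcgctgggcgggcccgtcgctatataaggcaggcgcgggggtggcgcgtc
HSPD1, chr2:197499841-197500090, minus strand: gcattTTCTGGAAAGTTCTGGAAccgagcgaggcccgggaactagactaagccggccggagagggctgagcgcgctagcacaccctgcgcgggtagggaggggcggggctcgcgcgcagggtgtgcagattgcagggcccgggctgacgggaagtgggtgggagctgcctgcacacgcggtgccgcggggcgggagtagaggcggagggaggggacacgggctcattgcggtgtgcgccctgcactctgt
HSPB1, chr7:76302423-76302672, plus strand: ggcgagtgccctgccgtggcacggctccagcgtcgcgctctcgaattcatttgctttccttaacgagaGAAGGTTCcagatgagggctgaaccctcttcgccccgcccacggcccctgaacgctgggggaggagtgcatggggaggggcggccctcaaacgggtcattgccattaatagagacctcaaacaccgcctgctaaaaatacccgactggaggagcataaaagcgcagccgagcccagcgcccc
HSPA5, chr9:125241344-125241593, minus strand: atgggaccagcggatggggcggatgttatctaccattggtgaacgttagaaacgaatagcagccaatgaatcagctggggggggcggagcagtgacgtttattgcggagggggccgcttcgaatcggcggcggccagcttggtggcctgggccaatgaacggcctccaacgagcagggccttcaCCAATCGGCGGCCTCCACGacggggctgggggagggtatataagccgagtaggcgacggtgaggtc

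In DNAJB1 the words began 77 and 47 bases before the start, and in HSPA8 230 and 55 bases before it. Those of HSPD1 overlapped, 245 and 240 bases upstream, while HSP90AA1 had 1 at 88 bases, HSPB1 1 at 182 bases and HSPA5 its ER word at 66 bases. HSPA1A and HSPA1B, the stress-inducible HSP70 genes, had the shorter word 106 and 105 bases upstream.

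Yet HSPA1A and HSPA1B were all but absent from the table. The row HSPA1A (chr6:31815543-31817946) held 1 count in 1 library and the row HSPA1B (chr6:31827738-31830254) held 0, out of 689295411 counts in all. A count of 0 allows up to 3 counts, which is 1.26 CPM of the unadjusted total in the smallest library and 0.240 CPM in the largest, for counting error only. The table also held 4 numbered entries for each of these symbols. Those for HSPA1A summed to 29 counts, at most 2 in a library, and those for HSPA1B to 91 counts, at most 7 in a library. Both genes lie in the major histocompatibility complex, and every stretch of 75 bases in the last 500 bases of their transcripts was also found on alternate contigs of the genome. Their levels are therefore uncertain, and a read that maps to several places could have been dropped from all of them. Nothing further is said of their response, and 8 of the 10 genes, with 14948 genes in all, passed the filter on low counts.

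The counting of some other members is uncertain for a like reason. Of the 426 stretches of 75 bases in the last 500 bases of each transcript, 41.3% for HSPD1, 24.9% for HSPA8, 15.5% for HSPB1 and 6.10% for HSP90AB1 occurred in 2 or more places of the primary genome. None did for HSPH1, DNAJB1, HSP90AA1 or HSPA5. DNAJB1 (chr19:14514769-14560391) overlaps TECR on the opposite strand, HSP90AA1 (chr14:102080742-102139699) overlaps WDR20, and HSPD1 (chr2:197486584-197516737) overlaps HSPE1 and MOB4. HSPA8 (chr11:123057489-123063230) contains 3 small nucleolar RNA genes on its own strand and overlaps a long noncoding RNA on the other. The strand setting of the counting is not given in the sources used here, so reads of opposite genes may have been joined or discarded. HSPH1 (chr13:31134973-31162388), HSP90AB1 (chr6:44246166-44253888), HSPB1 (chr7:76302673-76304295) and HSPA5 (chr9:125234853-125241382) overlap no other annotated gene. All positions are on GRCh38.

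HSPA8, the constitutive cytosolic HSP70, stood apart by its spread. Its coefficient of variation between replicates had a median of 37.0% over the 32 groups, and 99.8% of the 1187 genes within 2-fold of its level had a lower one. The other 7 members lay between 4.81% for HSPH1 and 11.6% for DNAJB1. The level of HSPA8 within a group rose with the library's total count (Pearson r = 0.816, Spearman rho = 0.806 over 96 libraries, permutation p = 1e-05 for each, the smallest that 100000 resamples can give, adjusted p = 2e-05 over 16 relations). For each library the log2 total was taken as a deviation from its group mean. Leaving out the 2 libraries farthest from the median deviation gave r = 0.799. Over all genes, 98.9% had a lower r, and the median r was -0.0301. The other 7 members had negative values, from -0.355 for HSP90AA1 to -0.647 for HSPA5. The median total of the arms lay between 6121636 counts (MAPKi, T) and 7895423 counts (MAPKi, CHX). Values of HSPA8 with the total count as a covariate, an alternative chosen after seeing the data, are given beside several of its results, including each whose call they changed.

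MAPKi pretreatment lowered 7 of the 8 tested heat shock protein genes and raised 1, HSPB1. The fall was to 0.308 times the DMSO level for HSPA8, 0.346 for HSPD1, 0.416 for HSPH1, 0.450 for HSP90AB1, 0.494 for HSP90AA1, 0.539 for HSPA5 and 0.689 for DNAJB1, while HSPB1 rose 2.54-fold. This comparison asked what MAPKi did to the mRNAs in cells that received no other drug, averaging the 4 harvest times. Of the 14948 genes tested, 69% passed, 35.8% higher and 33.1% lower, and the median log2 change over all of them was 0.05. Calls here and below are at an adjusted p under 0.05 from edgeR's quasi-likelihood test, and fold changes carry standard errors (SE) on the log2 scale.

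**Figure D1:**
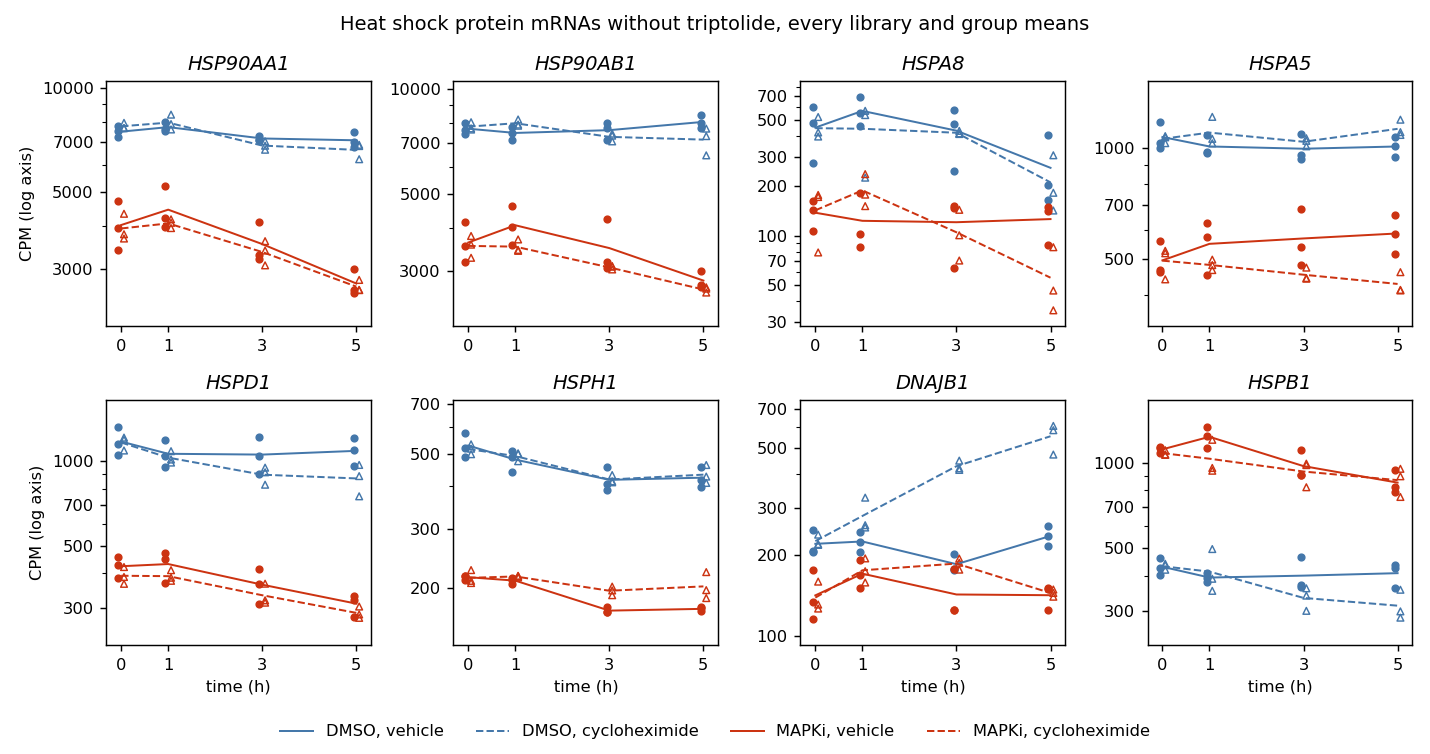
Levels of the 8 tested heat shock protein genes in CPM on a log axis against hours after the second treatment, with 1 point per library and a line through the mean of each group of 3, for the vehicle and cycloheximide arms of both pretreatments. HSPB1 lies higher after MAPKi and the other 7 genes lower, and DNAJB1 climbs from 225 to 553 CPM (group means at 0 and 5 h) in the DMSO-pretreated cycloheximide arm.

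Among the HSP70 group, HSPA8 in the 12 vehicle libraries after DMSO had a lowest value of 164, a median of 469 and a highest of 693 CPM. After MAPKi the 12 values ran from 63.2 through a median of 142 to 181 CPM, so the ranges overlapped between 164 and 181 CPM. Its log2 change was -1.70 (SE 0.20, adjusted p = 6.81e-12), and with the total count as a covariate it was -1.60 (SE 0.11). HSPH1, which releases ADP from HSP70, ran from 390 through 458 to 578 CPM after DMSO and from 170 through 191 to 218 CPM after MAPKi. The libraries did not overlap, and the change was -1.26 (SE 0.04, adjusted p = 5.84e-45). HSPA5 ran from 936 through 1006 to 1177 CPM after DMSO and from 453 through 551 to 684 CPM after MAPKi, again without overlap, a change of -0.89 (SE 0.05, adjusted p = 1.24e-26).

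DNAJB1, which stimulates the ATPase of HSP70, had the smallest fall. Its 12 DMSO libraries ran from 177 through 212 to 255.8 CPM and its 12 MAPKi libraries from 116 through 150 to 192 CPM. These ranges overlapped, and the change was -0.54 (SE 0.09, adjusted p = 7.48e-08).

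The HSP90 genes fell together. HSP90AA1, the stress-inducible form, ran from 6774 through 7366 to 7962 CPM after DMSO and from 2568 through 3680 to 5198 CPM after MAPKi. HSP90AB1, the constitutive form, ran from 7175 through 7742 to 8456 CPM and from 2710 through 3368 to 4628 CPM. Neither gene's libraries overlapped between the pretreatments, and the changes were -1.02 (SE 0.04, adjusted p = 1.36e-34) and -1.15 (SE 0.04, adjusted p = 3.49e-38). HSPD1, the subunit of the mitochondrial folding chamber, went from 902 through 1074 to 1326 CPM after DMSO to 280 through 378 to 474 CPM after MAPKi. All of its MAPKi libraries lay below all of its DMSO libraries, with a change of -1.53 (SE 0.05, adjusted p = 5.57e-41).

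HSPB1, an ATP-independent chaperone that keeps unfolding proteins in solution, went the other way. Its DMSO libraries ran from 363 through 405 to 464 CPM and its MAPKi libraries from 792 through 1098 to 1337 CPM. Every MAPKi library was above every DMSO library, and the change was 1.35 (SE 0.06, adjusted p = 6.91e-33). All 8 calls were kept when any 1 replicate was left out.

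**Figure D2:**
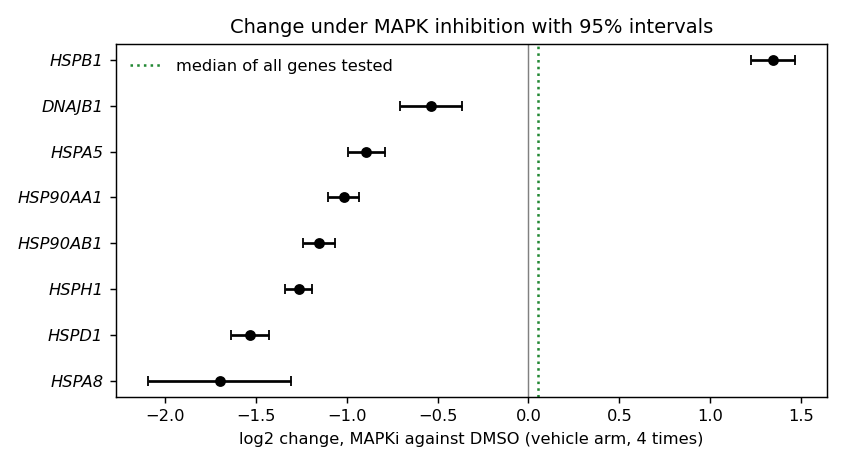
Log2 change of each tested heat shock protein gene, MAPKi against DMSO in the vehicle arm averaged over 4 times, as points with 95% intervals that are not adjusted for multiple tests, and a dotted line at the median of all genes tested. HSPB1 lies at 1.35 and the other 7 genes between -1.70 (HSPA8) and -0.54 (DNAJB1).

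The wider chaperone network was counted on lists of its parts. Of 36 tested cytosolic chaperones and co-chaperones other than these members, 21 were lower and 11 higher, with a median log2 change of -0.49. The largest fall named was that of FKBP4, an HSP90 co-chaperone of steroid receptors, at -1.79 (SE 0.06, adjusted p = 1.06e-39), and the largest rise was that of CRYAB, a small heat shock protein like HSPB1, at 5.31 (SE 0.14, adjusted p = 4.84e-49). All of the calls on the TRiC chaperonin and its partner prefoldin were lower, 11 of 12 tested, with CCT5 at -1.16 (SE 0.03) and PFDN2 at -1.21 (SE 0.11). Of 14 mitochondrial chaperones and proteases 9 were lower and 2 higher, and HSPE1, the co-chaperonin of HSPD1, was at -1.22 (SE 0.09). In the ER list 11 of 22 were lower and 5 higher, with SDF2L1 at -1.39 (SE 0.09) and XBP1, a transcription factor of the unfolded protein response, at -0.95 (SE 0.08). Of 3 tested genes for heat shock factors and their binding protein 2 were lower, HSF2 and HSBP1. The other, a heat shock factor, was higher, and the median log2 change of the 3 was -0.23. By way of a check on the pretreatment, all 10 listed feedback targets of ERK were lower, with a median of -4.26.

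During the vehicle arm itself, 5 h after the second treatment, few genes moved. After DMSO 1.06% of tested genes passed (0.582% higher, 0.482% lower) and HSPH1 was the member that did. It went from 578, 519 and 489 CPM at 0 h to 458, 419 and 398 CPM at 5 h, a log2 change of -0.32 (SE 0.07, adjusted p = 0.0124), and the groups did not overlap. The call was lost whenever any 1 replicate was left out, with an adjusted p of up to 0.282. After MAPKi 3.34% passed (1.26% higher, 2.07% lower), and 4 members were lower. These were HSP90AA1 at -0.56 (SE 0.09, adjusted p = 5.1e-06), HSPD1 at -0.44 (SE 0.10, adjusted p = 0.0049), HSP90AB1 at -0.36 (SE 0.09, adjusted p = 0.00564) and HSPH1 at -0.31 (SE 0.08, adjusted p = 0.00691). HSP90AA1 went from 3406, 4714 and 3953 CPM at 0 h to 2568, 2997 and 2622 CPM at 5 h, with every late library below every early one. Leaving out a replicate left 1 or 2 of these 4 calls. That of HSP90AA1 held each time, that of HSPD1 was lost without replicate 2 (adjusted p = 0.185), and those of HSP90AB1 and HSPH1 were lost each time. Whether the 2 pretreatments differ in this drift was not tested.

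At the start, the 3 inhibitor arms of both pretreatments were averaged and set against vehicle. No single arm or pretreatment was tested at 0 h, and opposite effects could cancel. At 0 h the 3 inhibitor arms against vehicle gave 0 members called by edgeR's test, as for all genes (0% in each direction), 0 with an unadjusted p under 0.05, and 0 by DESeq2. At 1 h of cycloheximide 0 members were called in either pretreatment, against 0.0803% of genes after DMSO (all of them higher, 0% lower) and 0.0736% after MAPKi (0.0602% higher, 0.0134% lower). Unadjusted p-values under 0.05 numbered 0 and 2, and DESeq2 called 0 in both. DNAJB1 had 258, 253 and 327 CPM at 1 h of cycloheximide after DMSO beside 224, 244 and 206 CPM in vehicle, a log2 difference of 0.31 with an interval of -0.02 to 0.65.

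By 3 and 5 h cycloheximide had raised DNAJB1 in cells pretreated with DMSO. Its level was 414, 420 and 449 CPM at 3 h and 604, 582 and 472 CPM at 5 h, beside 201, 177 and 177 CPM and 235, 255.8 and 216 CPM in vehicle. Every cycloheximide library was above every vehicle library. Over both times the rise was 2.33-fold (log2 1.22, SE 0.12, adjusted p = 8.3e-14), and it stayed between 1.201 and 1.229 when any 1 replicate was left out. In this comparison 31.7% of genes passed, 18.3% higher and 13.5% lower, and 3 of the 8 members did.

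The other calls were small falls. HSPB1 had 340, 300, 361, 356, 284 and 299 CPM under cycloheximide beside 464, 370, 365, 425, 436 and 363 CPM in vehicle, a change of -0.32 (SE 0.09, adjusted p = 0.00235) that reached an adjusted p of 0.0554 without replicate 2. In CPM all of its cycloheximide values lay below the lowest vehicle value. Scaled by the 36 genes used below for triptolide (the stable-gene scale), the ranges overlapped, at 2322 to 3013 beside 2581 to 3325. HSPD1 changed by -0.28 (SE 0.07, adjusted p = 0.00139), with 752 to 972 CPM beside 902 to 1223 CPM and overlapping ranges. HSPA8, HSPH1, HSP90AA1, HSP90AB1 and HSPA5 did not pass, with changes between -0.17 for HSPA8 (-0.33 with the total count as a covariate, adjusted p = 0.0867) and 0.11 for HSPA5. Other cytosolic chaperone genes that rose included BAG3, a co-chaperone of HSP70, at 0.82 (SE 0.20) and DNAJB4, a close relative of DNAJB1, at 0.84 (SE 0.16), among 7 higher and 3 lower of 36. In the ER list 5 were higher and 3 lower of 22, and DDIT3, a stress-induced transcription factor, was higher by 3.07 (SE 0.11).

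After MAPKi the same treatment moved DNAJB1 by less. DNAJB1 had 194, 177 and 187 CPM at 3 h and 140, 145 and 149 CPM at 5 h of cycloheximide, beside 125, 178 and 125 CPM and 150, 151 and 125 CPM in vehicle. In CPM the ranges overlapped, and the difference of 0.21 (interval -0.03 to 0.45, adjusted p = 0.202) did not pass. It passed under total counts, at 0.31 (adjusted p = 0.0402), and with the total count as a covariate, at 0.27 (adjusted p = 0.0144). On the stable-gene scale DNAJB1 ran from 1380 to 1661 under cycloheximide and from 884 to 1204 in vehicle, without overlap. The difference was not tested on that scale, on which the median gene also stood higher under cycloheximide. At 5 h after MAPKi the median gene was at 131% of its vehicle 0 h level under cycloheximide and at 102% in vehicle. DNAJB1 was at 138% under cycloheximide, and 55.8% of genes were lower. In this comparison 29.9% of genes passed, 15.9% higher and 13.9% lower, and the 2 members called were others. HSPA5 fell from 541, 684, 482, 660, 584 and 518 CPM in vehicle to 475, 443, 445, 461, 413 and 412 CPM. In CPM every value was below every vehicle value, with a change of -0.39 (SE 0.07, adjusted p = 1.39e-05). On the stable-gene scale its ranges overlapped, at 3550 to 4949 beside 3409 to 5315. HSPH1 rose by 0.21 (SE 0.05, adjusted p = 0.00136), with 187 to 223 CPM beside 170 to 176 CPM and no overlap, and reached an adjusted p of 0.052 without replicate 1. HSPA8 was at -0.70 (SE 0.28, adjusted p = 0.0548), passed at -1.17 without replicate 2 (adjusted p = 0.00747), and passed with the total count as a covariate at -0.85 (SE 0.16, adjusted p = 1.18e-05). In the ER list 11 of 22 were lower and 1 higher, with HERPUD1 at -0.63 (SE 0.14).

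The difference between the pretreatments in the response to cycloheximide was tested directly. DNAJB1 differed by -1.01 (SE 0.17, adjusted p = 7.15e-06), its response after MAPKi being 0.496 times that after DMSO, and HSPA5 by -0.50 (SE 0.10, adjusted p = 0.000252). The values for DNAJB1 over all alternatives lay between -1.10 and -0.86 and those for HSPA5 between -0.55 and -0.35, and every one passed. The stable-gene scale was not among these alternatives. Of all genes 11.2% passed this test, 4.64% positive and 6.59% negative. For the other 6 members the difference did not pass in edgeR, and for HSPH1 and HSPB1 it passed under some alternatives. HSPH1 was at 0.19 (interval 0.05 to 0.34, adjusted p = 0.0858), and passed in DESeq2 (adjusted p = 0.0398), under total counts (0.34, adjusted p = 0.000557) and with a replicate block (adjusted p = 0.0427). HSPB1 was at 0.30 (interval 0.07 to 0.54, adjusted p = 0.0961), and passed under total counts (0.46, adjusted p = 0.00375), without the filter on low counts (adjusted p = 0.0112) and with the total count as a covariate (adjusted p = 0.0309). Total counts also called HSPD1 (0.32, adjusted p = 0.0208), and the fit without the filter called HSPA8 (-0.51, adjusted p = 0.000104). The intervals of HSP90AB1 (-0.19 to 0.15) and HSP90AA1 (-0.14 to 0.20) lay around 0, and that of HSPA8 was the widest of the 8 (-1.30 to 0.25). In the same test 8 of 22 ER genes were negative and 0 positive, including ERN1, a sensor of unfolded ER proteins, at -1.59 (SE 0.47), while 7 of 9 listed short-lived mRNAs were negative, with a median of -2.04. DNAJB4 was at -1.18 (SE 0.23).

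Triptolide shut off transcription, and the fate of each mRNA was then followed on counts scaled by 36 genes whose share rises under triptolide, since a scaling on total counts hides a general loss (none of the members is among the 36). On this scale the median log2 change of all genes at 3 and 5 h against vehicle at 0 h was -0.47 after DMSO and -0.59 after MAPKi. Under TMM scaling, which assumes that most genes do not change, the same medians were 0 and 0.05. Directions of slow mRNAs thus depend on the scale, and values are given relative to it.

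DNAJB1 mRNA was lost far faster than the others. After DMSO its normalised counts of 1937, 1519 and 1442 at 0 h fell to 672, 433 and 437 at 3 h and to 131, 139 and 121 at 5 h of triptolide. After MAPKi 862, 1301 and 972 at 0 h fell to 91.7, 157 and 202 and then to 32.2, 34.03 and 59.3. Within each pretreatment the libraries of the 3 times did not overlap. At 5 h 7.98% ± 0.54 (SD, n = 3) of the 0 h level was left after DMSO and 4.00% ± 1.45 after MAPKi, beside 65.8% and 59.9% for the median gene. Of 11879 genes 3.24% kept less after DMSO, and of 12311 genes 1.71% after MAPKi. The log2 changes over 3 and 5 h were -2.66 (SE 0.16, adjusted p = 6.41e-25) and -3.75 (SE 0.18, adjusted p = 8.19e-32), and under TMM and total counts the sign was the same.

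**Figure D3:**
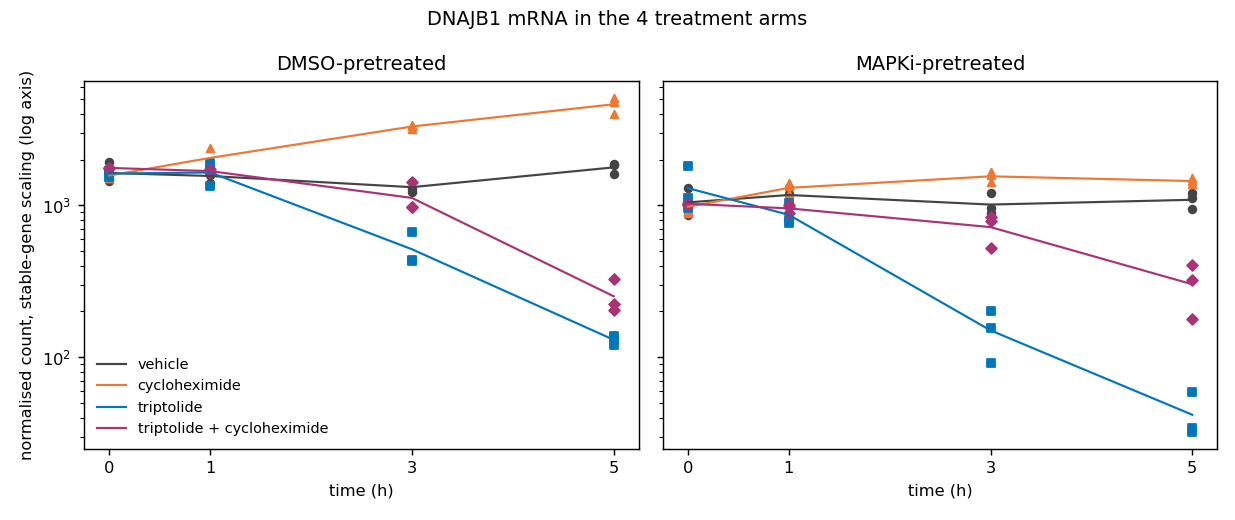
Normalised counts of DNAJB1 on a log axis against hours, for the 4 arms and both pretreatments, with 1 point per library and lines through the group means. At 5 h the triptolide arms are lowest, at 121 to 139 after DMSO and 32.2 to 59.3 after MAPKi, and adding cycloheximide leaves higher values in both.

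The other mRNAs were long-lived by comparison. After DMSO 7 of the 8 members, DNAJB1 included, were lower and 0 higher, beside 48.7% of genes lower and 1.3% higher (50% called). HSPH1 changed by -0.54 (SE 0.09), HSPA5 by -0.52 (SE 0.10), HSPD1 by -0.43 (SE 0.10), HSPB1 by -0.26 (SE 0.11, adjusted p = 0.0462), HSP90AB1 by -0.26 (SE 0.09, adjusted p = 0.0114) and HSP90AA1 by -0.21 (SE 0.09, adjusted p = 0.038). HSPB1 reached an adjusted p of 0.0878 without replicate 1, and HSP90AB1 and HSP90AA1 reached 0.0532 and 0.0836 without replicate 3. Under TMM the signs of HSPB1, HSPD1 and both HSP90 genes were positive, giving 2 members called higher and 1 lower. Under total counts the signs of HSPB1 and both HSP90 genes were positive without passing. HSPA8 did not pass, at -0.13 (interval -0.76 to 0.50), nor with the total count as a covariate, at -0.37 (adjusted p = 0.0776).

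After MAPKi 7 members were lower and 0 higher again, beside 56.1% of genes lower and 1.28% higher (57.4% called). HSPH1 changed by -0.68 (SE 0.09), HSPA5 by -0.50 (SE 0.10), HSPD1 by -0.40 (SE 0.11), HSP90AA1 by -0.30 (SE 0.09), HSPB1 by -0.29 (SE 0.11) and HSP90AB1 by -0.26 (SE 0.09). HSPB1 reached an adjusted p of 0.0529 without replicate 3. Under TMM 5 of these 6, all but HSPH1, were positive, giving 4 members called higher and 1 lower, and under total counts HSPB1 and both HSP90 genes were positive without passing. HSPA8, at -0.41 (SE 0.33), did not pass, and with the total count as a covariate it did, at -0.61 (SE 0.19, adjusted p = 0.00389). The percentages left at 5 h, DMSO first, were 84.3% and 77.4% for HSP90AA1, 82.7% and 81.1% for HSP90AB1, 83.0% and 81.1% for HSPB1, 74.1% and 74.4% for HSPD1, 66.9% and 69.0% for HSPA5 and 64.5% and 58.0% for HSPH1. For HSPA8 they were 91.8% ± 16.9 and 65.3% ± 26.9. HSPH1 kept less than the median gene in both pretreatments, though by less than its SD of 6.29 and 3.74 percentage points, and HSPA5 after DMSO was within its SD of 5.95 points of that gene.

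**Figure D4:**
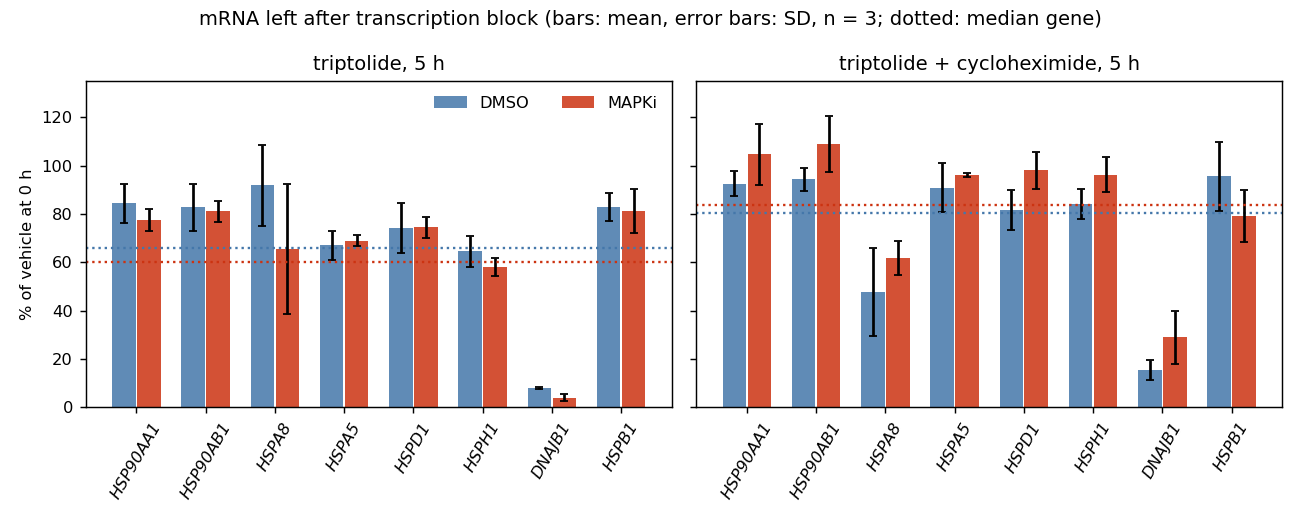
Percentage of the vehicle 0 h level left at 5 h of triptolide, alone or after cycloheximide, for each tested heat shock protein gene and both pretreatments, as bars from 0 with the SD of 3 replicates and dotted lines for the median gene. DNAJB1 is lowest in every panel, at 7.98% and 4.00% with triptolide alone.

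The loss under triptolide was tested for a difference between the pretreatments, and DNAJB1 alone of the 8 members passed, where 3.17% of genes did (0.415% positive, 2.76% negative). Its loss was deeper after MAPKi, with a log2 difference of -1.10 (SE 0.25, adjusted p = 0.00372). Without replicate 2 the value was -0.88 and the adjusted p 0.147, so the call rests in part on that replicate. The intervals for HSP90AB1 (-0.25 to 0.24), HSPA5 (-0.27 to 0.31) and HSPD1 (-0.27 to 0.32) were centred near 0, and that for HSPA8 ran from -1.19 to 0.63.

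With translation stopped first, more DNAJB1 mRNA was left, above all after MAPKi. This comparison, TCHX against T at 3 and 5 h, asked how far loss of an mRNA depended on its translation. After DMSO the normalised counts were 1414, 973 and 968 at 3 h and 329, 203 and 223 at 5 h of TCHX, beside 672, 433 and 437 and 131, 139 and 121 of T. After MAPKi they were 526, 838 and 792 at 3 h and 179, 322 and 406 at 5 h, beside 91.7, 157 and 202 and 32.2, 34.03 and 59.3. At each time and in each pretreatment every TCHX library was above every T library. The difference was 2.06-fold after DMSO (log2 1.04, SE 0.14, adjusted p = 5.35e-09) and 5.98-fold after MAPKi (log2 2.58, SE 0.16, adjusted p = 2.25e-24).

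Several other members were higher in TCHX by less on the stable-gene scale. The 36 scaling genes were chosen by their rise in T and not in TCHX, a choice that can by itself raise TCHX against T. Under TMM the median of all genes was -0.00332 after DMSO and -0.0467 after MAPKi. After DMSO 4 were higher and 1 lower, beside 28.4% and 0.468% of genes (28.9% called) and a median of 0.23. Besides DNAJB1 the higher ones were HSPA5 at 0.39 (SE 0.09), HSPH1 at 0.31 (SE 0.07) and HSP90AB1 at 0.20 (SE 0.07, adjusted p = 0.0322, 0.0726 without replicate 1 and 0.277 without replicate 3). HSPA8 was lower at -0.67 (SE 0.27, adjusted p = 0.0477), with 884 to 3366 normalised counts beside 2390 to 4256 and overlapping ranges. That call was lost in DESeq2 and with any 1 replicate left out, where its adjusted p reached 0.144, and the value with the total count as a covariate was -0.53 (SE 0.15, adjusted p = 0.00339). After MAPKi 6 were higher and 0 lower, beside 41.4% and 0.535% of genes (42% called) and a median of 0.34. These were DNAJB1, HSPH1 at 0.63 (SE 0.07), HSPA5 at 0.43 (SE 0.09), HSP90AB1 at 0.33 (SE 0.07), HSP90AA1 at 0.31 (SE 0.07) and HSPD1 at 0.29 (SE 0.09). The last 3 lay below the median gene, and under TMM their signs were negative, as was that of HSP90AB1 after DMSO. TMM called 1 member higher and 1 lower after DMSO, and 2 higher and 1 lower after MAPKi. Under it HSPA5 was at 0.15 after DMSO (adjusted p = 0.132) and 0.04 after MAPKi (adjusted p = 0.721). HSPH1 after DMSO was at 0.07 (adjusted p = 0.352). Of the cytosolic chaperone list 9 were higher and 1 lower after DMSO and 21 higher and 0 lower after MAPKi, of 36, led by BAG5, an exchange factor of HSP70, at 1.41 (SE 0.11) and 2.198 (SE 0.12). HSF2, a heat shock factor, was at 1.14 (SE 0.13) and 1.95 (SE 0.14).

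The difference between pretreatments in this effect passed for 2 members, beside 7.11% of genes (6.82% positive, 0.294% negative). DNAJB1 was at 1.54 (SE 0.22, adjusted p = 2.35e-07) and stayed between 1.35 and 1.67 over all alternatives, each of which passed. HSPH1 was at 0.31 (SE 0.10, adjusted p = 0.0464), and only 4 of its 12 alternatives passed, with adjusted p-values of up to 0.236. Of the lists, 6 of 36 cytosolic chaperones were positive, with BAG5 at 0.79 (SE 0.16), and 1 of 22 ER genes was, XBP1 at 0.79 (SE 0.18). The opposite signs of the DNAJB1 differences, -1.01 for cycloheximide alone and 1.54 under triptolide, come from comparisons that share no library, whereas the values for triptolide alone and for TCHX share the T libraries.

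**Figure D5:**
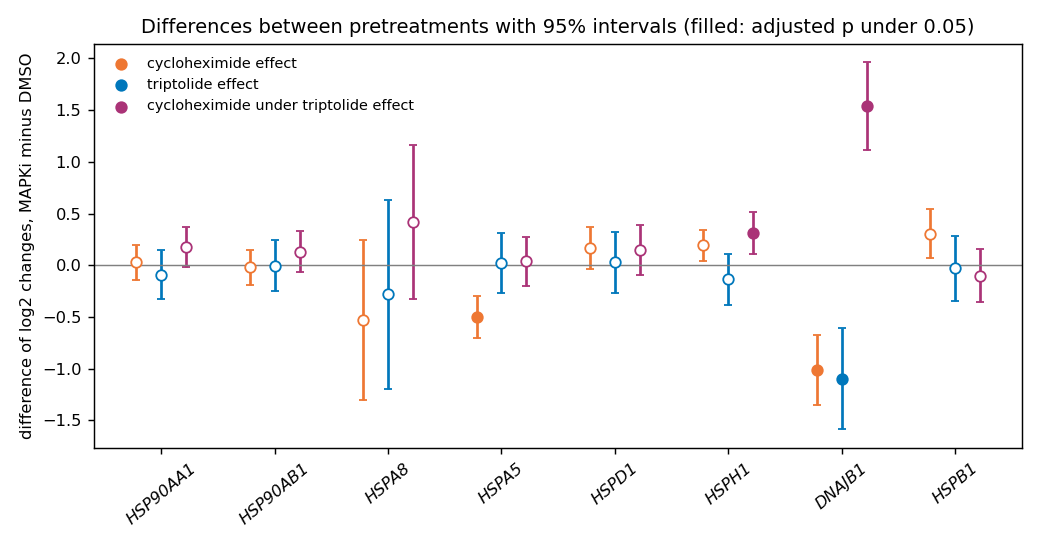
Difference between pretreatments, MAPKi minus DMSO on the log2 scale, in the response to cycloheximide, in the loss under triptolide and in the effect of cycloheximide under triptolide, with 95% intervals that are not adjusted for multiple tests and filled points where the adjusted p is under 0.05. DNAJB1 is filled in all 3 comparisons, at -1.01, -1.10 and 1.54, and HSPA5 and HSPH1 in 1 comparison each.

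Set against cycloheximide alone, TCHX compares cells with and without transcription while translation is blocked in both. DNAJB1 was lower in both pretreatments, at -2.88 after DMSO (SE 0.14, adjusted p = 1.49e-30) and at -1.70 after MAPKi (SE 0.14, adjusted p = 2.39e-18). After DMSO its TCHX counts of 203 to 1414 lay below the 3185 to 5103 of the cycloheximide arm, and after MAPKi 179 to 838 lay below 1380 to 1661. Of the other members after DMSO, HSPA5 was lower at -0.26 (SE 0.09, adjusted p = 0.00744) and HSPB1 higher at 0.25 (SE 0.09, adjusted p = 0.0193), beside 42.8% of genes lower and 3.31% higher (46.2% called) and a median of -0.34. After MAPKi HSPH1 was lower at -0.25 (SE 0.07, adjusted p = 0.00228) and HSPA5 at -0.21 (SE 0.09, adjusted p = 0.0276), beside 55.5% lower and 1.87% higher (57.4% called) and a median of -0.52. Under TMM the values of HSPA5 and HSPH1 were positive in both pretreatments, and 5 members were called higher and 1 lower after DMSO, and 6 higher and 1 lower after MAPKi. Without replicate 3 the call on DNAJB1 was the 1 that remained in each pretreatment, and without replicate 1 HSPA5 after MAPKi was at -0.11 (adjusted p = 0.351).

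The study's measure of translation-dependent degradation (TDD) is the index (TCHX - T) divided by the vehicle level at 0 h. A value of 0 means no stabilisation by cycloheximide on the scale used, which here is the stable-gene scale. For DNAJB1 it was 0.383, 0.356 and 0.368 at 3 h and 0.102, 0.0425 and 0.0709 at 5 h after DMSO. After MAPKi it was 0.503, 0.524 and 0.607 at 3 h and 0.170, 0.221 and 0.357 at 5 h. Every MAPKi value was above every DMSO value of its time. The mean over both times went from 0.221 ± 0.0218 to 0.397 ± 0.0758 (SD, n = 3), a difference of 0.18 with an adjusted p of 0.0741 in a linear model fitted across genes with limma's lmFit and its ordinary, unmoderated statistic. Of 10673 genes tested 0.122% passed, all of them higher (0% lower), and 0 members did. Unadjusted p-values under 0.05 numbered 2 of 8, and no DESeq2 or edgeR test applies to this index. The paper called changes of the index at a p-value of 0.05 or less and names no correction, a looser threshold than the adjusted p used here. The paper words its rule for stable genes as a rise at 3 or 5 h, whereas the 36 genes used here rose at both times. With genes that rise at 3 or 5 h the DNAJB1 difference was 0.19 and passed (adjusted p = 0.0484). Of 12 alternatives for this difference, that one included, 2 passed, both with other sets of stable genes, at adjusted p-values of 0.0484 and 0.0477. The other 10 did not, among them limma's moderated statistic (adjusted p = 0.176), the triptolide arm at 0 h as the initial level (0.11, adjusted p = 0.318), the times 1, 3 and 5 h together (adjusted p = 0.17) and leaving out 1 replicate (adjusted p = 0.269 to 0.46). For HSPH1 the index went from 0.164 ± 0.0694 to 0.337 ± 0.0818. For HSPA5 it went from 0.219 ± 0.0775 to 0.244 ± 0.0382, with an interval for the difference of -0.08 to 0.13. The median gene had 0.122 after DMSO and 0.185 after MAPKi.

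Over all 32 groups the members fell into 2 kinds of pattern, given here as a description since the groups share pretreatments and scaling. For HSPA8, HSPH1, HSP90AA1, HSP90AB1, HSPA5 and HSPD1 every DMSO group mean lay above every MAPKi group mean, and for HSPB1 below. HSP90AA1 ran from 9299 CPM (DMSO, T, 5 h) to 2674 CPM (MAPKi, CHX, 5 h), and HSPB1 from 1531 CPM (MAPKi, T, 5 h) to 313 CPM (DMSO, CHX, 5 h). These CPM are relative to the library, and triptolide arms stand high in them. DNAJB1 had the widest range as a fold, from 553 CPM (DMSO, CHX, 5 h) to 9.55 CPM (MAPKi, T, 5 h), and in it the pretreatments overlapped. When the 32 groups were ordered by mean, neighbours did not differ beyond their spread (mean minus SD of the higher at or below mean plus SD of the lower) in 31 of 31 pairs for HSPA8, 30 for HSPA5, 29 for HSPH1, HSP90AA1, HSP90AB1, HSPB1 and HSPD1, and 26 for DNAJB1.

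HSP90AA1 and HSP90AB1 followed each other closely, with Pearson r = 0.989 over the 32 groups and 0.956 after each pretreatment's mean was removed. HSPD1 followed both, at 0.977 and 0.991, while DNAJB1 had 0.0806 with HSP90AA1 and, with pretreatment means removed, -0.599. Among all 14948 genes tested, those most like each member by r over group means were CCT6A (0.996) and CCT5 (0.995) for HSPD1, SNU13 and PA2G4 (0.994 each) for HSP90AB1, HSP90AB1 (0.989) and NME1 (0.988) for HSP90AA1, SRM (0.992) for HSPB1, CSPG4 (0.990) and CMTM7 (0.987) for HSPA5, SYTL5 and SLC26A2 (0.987 each) for HSPH1, SKP2 (0.971) and SFXN1 (0.962) for HSPA8, and RBBP6 (0.967) and SETD1A (0.966) for DNAJB1.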

How the data were processed

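Cytoplasmic RNA of 96 libraries (32 groups of 3) was measured by 3′ end sequencing. The deposited table holds raw read counts per gene, which the authors made with fastp 0.20.1, HISAT2 2.2.1 and HTSeq 0.13.5 on GRCh38.p13 according to the submitters' processing notes, counting forward reads over exons. How multiply mapped reads were treated is not given in the sources used here. Libraries held 2381351 to 12520154 counts, which sets the counting error.

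The 10 members and all gene lists were chosen with earlier results of these data known. All members were named in every comparison, and of each list at most the 2 highest and 2 lowest log2 changes among genes called. Genes with low counts were removed with filterByExpr, and 1 model with 32 group means was fitted to all 96 libraries with edgeR 4.0.16 (quasi-likelihood test, two-sided, Benjamini-Hochberg over 14948 genes, R 4.3.3). Scaling was by TMM without triptolide and, with it, by DESeq2 1.42.0 size factors over 36 stable genes, those at least 1.1 times their vehicle 0 h CPM (over 0.2) in the triptolide arm at 3 and 5 h. Normalised counts use the latter. The paper words the required rise as at 3 or 5 h, which is among the alternatives here. The TDD index was fitted with lmFit of limma 3.58.1 on pretreatment, time and replicate and tested with the ordinary, unmoderated statistic, for genes with 10 or more normalised counts at 0 h. Intervals are 95% and not adjusted for multiple tests. Fits were tested on simulated data. Alternatives were other scalings, filters, tools and sample sets, a replicate block, leaving out each replicate and a depth covariate.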

Additional observations from a re-analysis of the deposited data

Results flagged for a closer look

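Responses that differed between the pretreatments were found for 3 members by tests of the difference itself in edgeR. For DNAJB1 the response to cycloheximide at 3 and 5 h differed by -1.01 (SE 0.17, adjusted p = 7.15e-06), the loss under triptolide by -1.10 (SE 0.25, adjusted p = 0.00372) and the effect of cycloheximide under triptolide by 1.54 (SE 0.22, adjusted p = 2.35e-07), all MAPKi minus DMSO on the log2 scale. Over the alternatives these values ran from -1.10 to -0.86 (10 of 10 passed), from -1.35 to -0.88 (11 of 12 passed) and from 1.35 to 1.67 (12 of 12 passed). For HSPA5 the response to cycloheximide differed by -0.50 (SE 0.10, adjusted p = 0.000252), and 10 of 10 alternatives passed. For HSPH1 the effect of cycloheximide under triptolide differed by 0.31 (SE 0.10, adjusted p = 0.0464), and 4 of 12 alternatives passed, with values from 0.17 to 0.40.

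Counts outside the named rows were found for HSPA1B. Its 4 numbered entries held 91 counts in 43 libraries, while the row HSPA1B itself held 0. The most in a library was 7, above the 3 counts that a count of 0 in a library allows.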

How the results depend on the processing

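Of 199 counts of members called under an alternative, 164 stayed within 1.5 times the reported count and 35 did not. Of 1592 single values, 1447 kept their direction and side of the threshold, 64 lost a call, 48 gained one and 33 called or newly called values changed sign. Another 80 values that never passed changed sign and are among the 1447. No setting of scaling, filter, tool or sample set changed the 8 calls of MAPKi against DMSO by more than 1.5 times.

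The calls of the triptolide comparisons depended on the scaling. Under total counts 2 members were called in place of 7 for triptolide against vehicle in each pretreatment, 3 in place of 6 for TCHX against T after MAPKi, 6 in place of 3 for TCHX against CHX after DMSO, and 5 in place of 2 for the difference in cycloheximide response. Under TMM the counts were 3 in place of 7 for triptolide after DMSO, 2 in place of 5 and 3 in place of 6 for TCHX against T after DMSO and MAPKi, 1 in place of 2 for its difference, and 6 and 7 in place of 3 for TCHX against CHX after DMSO and MAPKi. The median log2 change of all genes for triptolide after DMSO and MAPKi was -0.47 and -0.59 by stable genes and 0 and 0.0523 by TMM. The cause of the changes under total counts was not tested. The comparisons without triptolide were not run with the stable-gene scaling.

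Signs turned as follows. For triptolide after DMSO, HSP90AA1, HSP90AB1 and HSPB1 were at 0.114, 0.0645 and 0.0625 under total counts and at 0.27, 0.22 and 0.22 under TMM, with HSPD1 at 0.0499. After MAPKi the same 3 were at 0.0625, 0.0989 and 0.0642 under total counts and at 0.35, 0.38 and 0.35 under TMM, with HSPA5 at 0.14 and HSPD1 at 0.24. For TCHX against T under TMM, HSP90AB1 was at -0.0427 after DMSO, and after MAPKi HSP90AA1, HSP90AB1, HSPB1 and HSPD1 were at -0.0798, -0.0610, -0.26 and -0.0960. For TCHX against CHX after DMSO, HSPH1, HSP90AA1, HSP90AB1 and HSPA5 were at 0.31, 0.31, 0.26 and 0.0869 under total counts and at 0.32, 0.32, 0.27 and 0.0964 under TMM. After MAPKi HSPH1 and HSPA5 were at 0.0705 and 0.105 under total counts, and HSPH1, HSPB1 and HSPA5 at 0.32, 0.40 and 0.35 under TMM.

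With stable genes that rise at 3 or 5 h, or without chaperone genes among them, 1 in place of 2 members was called for the difference in the effect of cycloheximide under triptolide and 1 in place of 0 for the TDD index. Without the filter on low counts 1 in place of 0 was called at 1 h of cycloheximide after MAPKi and 4 in place of 2 for the difference in cycloheximide response. With the total count as a covariate, chosen after seeing the data, 4 in place of 2 were called for cycloheximide after MAPKi. In a fit of the libraries compared alone, 0 in place of 1 was called for vehicle over time after DMSO and 1 in place of 2 for the difference under triptolide. The cause of these changes was not tested.

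Leaving out each replicate in turn, which also changed the stable genes to 96, 131 or 164, gave 0 in place of 1 for vehicle over time after DMSO and 1 to 2 in place of 4 after MAPKi, and 1 to 3 in place of 2 for cycloheximide after MAPKi. It gave 0 to 1 in place of 1 for the difference under triptolide, 3 to 4 in place of 5 for TCHX against T after DMSO, 1 in place of 2 for its difference, and 1 to 3 and 1 to 4 in place of 3 for TCHX against CHX after DMSO and MAPKi.

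The column headers of the counts carry a shared number for each replicate over all groups, and the labels do not say what it marks. The correlations fell short of 0.1 for most pairs, and the libraries were not treated as paired in the edgeR fits. The TDD index does combine libraries of the same replicate number. The correlation of deviations from the group means between libraries of the same number had a median of 0.0186, 0.00863 and 0.0147 for numbers 1 to 3, with 11.1% to 16.1% of pairs over 0.1, beside -0.00863, -0.00556 and -0.00584 with libraries of another number. By this measure 64 of 96 libraries correlated best with their own number, and what libraries of a number share is not stated. A replicate block moved no count of calls by over 1.5 times and added 4 calls, HSPB1 for vehicle over time after MAPKi (-0.39, edgeR adjusted p = 0.0356), HSPA8 for cycloheximide after MAPKi (-0.73, adjusted p = 0.031), HSPH1 for the difference in cycloheximide response (0.19, adjusted p = 0.0427) and HSPB1 for TCHX against T after DMSO (0.22, adjusted p = 0.0469). Scaling by genes stable in both triptolide arms was not run, since 1 gene met that rule.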
